A study of Homo sapiens with 4 samples.

Results

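The glutathione and NRF2 antioxidant genes are a set of 9 genes, namely NFE2L2, GCLC, GCLM, GSR, GPX4, TXNRD1, SRXN1, NQO1 and HMOX1, picked by symbol out of the 29833 genes in the expression table. They were measured by RNA-seq in Reh-6-MPR cells, a derivative of Reh, which is an established cell line of human B-cell acute lymphoblastic leukemia (B-ALL). The derivative was made resistant to 6-mercaptopurine (6-MP), a thiopurine drug, by stepwise exposure to it, was kept free of 6-MP before the experiments, and carries the genotype label WT. The cells were kept for 48 h in vehicle (PBS, labelled Blank), in 4 mM histidine, in 1.0 μg/mL 6-MP, or in histidine together with 6-MP (combined treatment), and all 4 libraries thus come from resistant cells. The comparisons ask how the levels of these genes stood when histidine was added to 6-MP, beside either agent alone and vehicle.

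NRF2, the protein of NFE2L2, is a transcription factor that KEAP1 hands to the proteasome under basal conditions. Electrophiles and oxidants block that handover, and the accumulated protein binds antioxidant response elements together with small MAF proteins, while BACH1 competes for the same elements. The targets make and recycle glutathione, reduce thioredoxin and peroxides, and detoxify quinones and heme. NRF2 activity is set largely through protein stability, which transcript levels do not report.

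Expression was given as FPKM, that is reads of a gene scaled to gene length and to the reads of the library, so levels can be set side by side between genes. The libraries held 12899122 reads (combined treatment) to 15486376 reads (histidine). The library with the fewest reads, that of the combined treatment, had the most genes above 0, 25443 against 23635 to 23978 in the others. Each treatment had 1 library, so replicates cannot check any difference, and p-values are not given. The 95% intervals are exact Clopper-Pearson intervals on the reads, which cover counting error only and compare libraries rather than treatments. Fold changes are differences of log2(FPKM + 1), a scale on which changes of weakly expressed genes come out too small. They were examined in the 12750 genes whose mean FPKM reached 1. Of the B-lineage markers, 12 of 13 were listed, with a summed FPKM of 1695 to 1786 and none past an absolute log2 fold change of 1 against vehicle. Of the T-lineage markers only TRAC was listed (CD2, CD3D, CD3E and CD3G were absent), at 11.6 to 12.2 FPKM in the first 3 libraries and 32.1 in the combined treatment. Of the myeloid markers 6 of 7 were listed, with a sum of 30.1 to 34.3 FPKM against 62.9 in the combined treatment, where ITGAM stood at 19.2 FPKM against 3.06 to 3.16. The 3 listed erythroid markers summed to 0.159 to 0.492 FPKM.

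Stretches of the members' promoters are shown because NRF2 acts through a short DNA motif. The core of the antioxidant response element, TGACNNNGC, was searched on both strands of the promoters in RefSeq (GRCh38.p14), taken as 250 bases before to 50 bases after each start site. Entries existed for 7 of the 9 genes, with 11 promoters among them, and none for GSR and HMOX1. The core was present in 3 promoters of 2 genes, GCLM and TXNRD1. Over all 35116 promoters it was present in 13.3%. The matches are given with 20 bases on each side, 5′ to 3′ on the strand of the gene, with the 9 bases of the match in capitals. A match on the opposite strand reads as the reverse complement of the core.
GCLM, chr1:93909436-93909484, minus strand: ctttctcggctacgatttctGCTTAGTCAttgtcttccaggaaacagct
TXNRD1, chr12:104215660-104215708, plus strand: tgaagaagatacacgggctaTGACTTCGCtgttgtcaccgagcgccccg
TXNRD1, chr12:104215751-104215799, plus strand: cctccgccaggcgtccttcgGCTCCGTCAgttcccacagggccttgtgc
TXNRD1, second start site, chr12:104286910-104286958, plus strand: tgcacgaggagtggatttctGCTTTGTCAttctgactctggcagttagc
The GCLM match ended 26 bases before the start site and lay on the opposite strand. Of the TXNRD1 matches, the first read in the direction of the gene and ended 91 bases before the start site, the second ended at the start site, and the one at the other start site ended 94 bases before it. The 250 bases before the start site of NQO1 are shown as well, since NQO1 had the largest fold change of the 9 genes as deposited, and no match was found in its promoter.
NQO1, chr16:69726561-69726810, minus strand: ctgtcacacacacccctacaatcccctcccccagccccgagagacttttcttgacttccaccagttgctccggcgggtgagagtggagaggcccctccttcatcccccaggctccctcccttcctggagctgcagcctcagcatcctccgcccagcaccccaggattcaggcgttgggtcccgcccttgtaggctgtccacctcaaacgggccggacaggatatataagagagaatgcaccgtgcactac
A match is a description of letters and not a measured binding site, and response elements outside these windows were not searched.

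The antioxidant genes were expressed over a wide range. Of the 9 genes, 7 reached a mean of 1 FPKM, while SRXN1 and HMOX1 were at or under the floor of 3 reads in every library. By mean level GPX4 stood at the 97.7th percentile of the genes tested, followed by TXNRD1 (93.3), GSR (84.0), NFE2L2 (62.3), GCLM (40.5), NQO1 (24.1) and GCLC (16.7). This order was the same in vehicle, histidine and 6-MP. In the combined treatment it was the same too, although NQO1 came closer to GCLM, and the counting intervals of GCLM (4.65 to 5.73 FPKM) and NQO1 (3.14 to 4.40 FPKM) did not overlap there. In vehicle the interval of GCLC, 1.52 to 1.99 FPKM, overlapped that of NQO1, 1.72 to 2.63 FPKM, as it did with histidine and with 6-MP, so that GCLC and NQO1 could not be ordered in those libraries. The intervals of all other neighbours in the order were apart in each library.

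**Figure D1:**
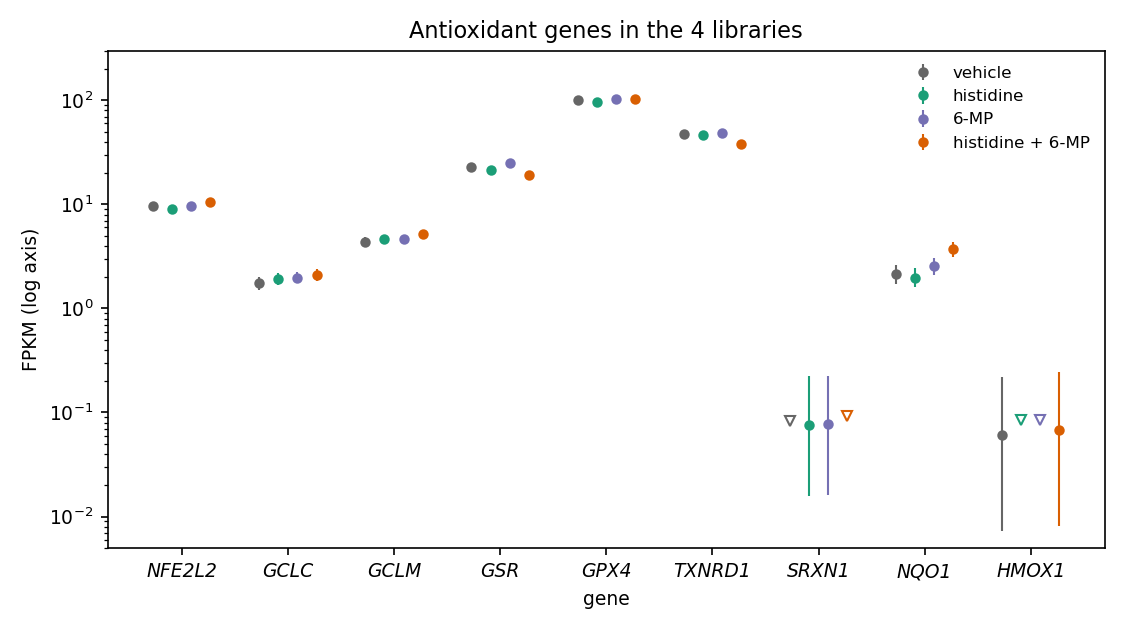
FPKM (log axis) of the 9 genes in the 4 libraries, with bars for the exact 95% Clopper-Pearson interval of counting error and open triangles at the floor of 3 reads for libraries with no read. NQO1 was highest, and GSR and TXNRD1 lowest, in the combined treatment, while SRXN1 and HMOX1 stayed under 0.1 FPKM.

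None of the 7 expressed genes passed an absolute log2 fold change of 1, the fold threshold of the study, in any comparison. Among all genes tested, 1.33% passed it for histidine against vehicle, 1.18% for 6-MP against vehicle, 6.53% for the combined treatment against vehicle, 6.02% for the combined treatment against 6-MP and 5.55% for the combined treatment against histidine. At a lower threshold of 0.5 only NQO1 passed, in the combined treatment against vehicle (27.1% of all genes tested) and against histidine (25.4%). No member passed 0.5 in the combined treatment against 6-MP (26.2%), in histidine against vehicle (4.86%) or in 6-MP against vehicle (4.72%). By direction, 19.7% of the genes tested were at least 0.5 higher in the combined treatment than in vehicle and 7.37% at least 0.5 lower, and at a threshold of 1 the shares were 5.01% and 1.51%. As deposited, the share of members past 0.5, 1 of 7, was thus below the background of the same comparison. After the median-ratio scaling described below, 2 of 7 passed 0.5 against 6-MP, beside 25.4% of all genes tested. The 3 comparisons of the combined treatment share its 1 library, in which the read total was lowest and TRAC and ITGAM were higher, and the part of these in the results was not tested. In bulk RNA, fewer cells of a type and less RNA per cell cannot be told apart.

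The read counts, taken per library total, resolved smaller differences, some of which changed sign under the scalings described below. Among the members these were GCLM against vehicle and GPX4 against histidine, both in the combined treatment. NFE2L2 in the combined treatment against histidine fell to 0.02 after median-ratio scaling. The counting interval of the read ratio excluded 0 for no member in histidine against vehicle, where it did for 21.6% of all genes tested. In 6-MP against vehicle it excluded 0 for GSR alone among the members (17.9% of all genes tested). In the combined treatment it excluded 0 for 4 members against vehicle, GCLM and NQO1 (higher) and GSR and TXNRD1 (lower), beside 63.5% of all genes tested. Against 6-MP it did so for 3 members, NQO1 (higher) and GSR and TXNRD1 (lower), beside 63.4%. Against histidine it did so for 5 members, NFE2L2, GPX4 and NQO1 (higher) and GSR and TXNRD1 (lower), beside 63.2%. The members' share was above the background against histidine (5 of 7) and below it in the other comparisons.

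**Figure D2:**
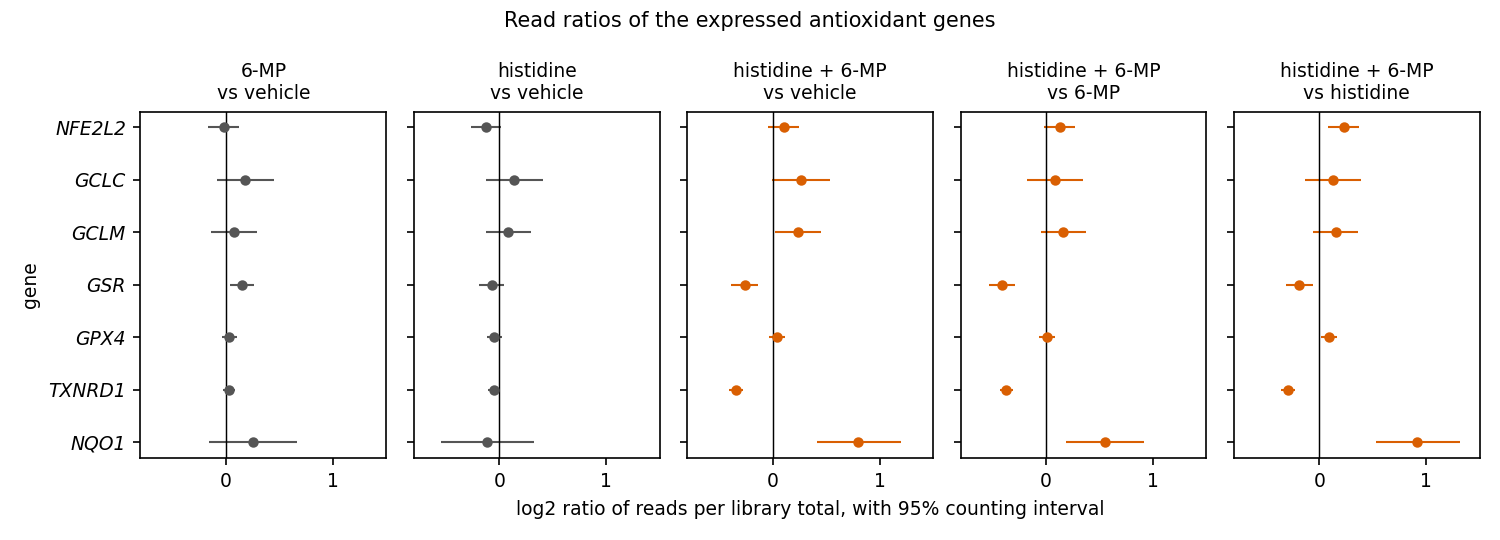
Log2 ratio of reads per library total (x axis) for the 7 expressed genes (y axis) in the 5 comparisons between libraries, with exact 95% intervals of counting error. In each comparison with the combined treatment NQO1 lay right of 0 and GSR and TXNRD1 left of it, while the ratios of single agents against vehicle lay between -0.12 and 0.25.

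The direction of small differences depended on the scaling. The median of all genes tested was 0.13 (log2) in the combined treatment against vehicle, 0.13 against 6-MP and 0.11 against histidine, against 0.015 for histidine and 0.0039 for 6-MP, both against vehicle. Scaling the libraries to a common median ratio (to each gene's geometric mean, over genes above 0 in all libraries) lowered the combined treatment by 0.24 relative to vehicle, and by 0.16 when only the genes tested were used. As deposited, 5 of the 7 members were higher than vehicle in the combined treatment and 2 were lower. After the first scaling 2 were higher and 5 lower, and after the other 3 were higher and 4 lower. NQO1 stayed higher and GSR and TXNRD1 stayed lower in the combined treatment against each other library under both scalings. The members' median log2 fold change was 0.095 in the combined treatment against vehicle, below the median of all genes tested.

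The first member by role is the regulator itself. NFE2L2 (ENSG00000116044, chr2:177227595-177392697, minus strand, GRCh38) was at 9.76 FPKM in vehicle, 8.95 with histidine, 9.61 with 6-MP and 10.5 in the combined treatment, from 767 to 836 reads. The levels lay close together, the highest being 1.17 times the lowest. The log2 fold change of the combined treatment was 0.09 against vehicle, 0.11 against 6-MP and 0.21 against histidine, and the read ratio excluded 0 in the last of these only (0.23, 95% interval 0.08 to 0.37). After median-ratio scaling the differences from vehicle, 6-MP and histidine were -0.13, -0.10 and 0.02. With scaling over the genes tested alone they were -0.05, -0.02 and 0.09. The gene model overlapped 8 small genes of the table, 3 of them on the other strand, none above 3.79 FPKM, and whether the counting used strand is not known here.

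Partners of NFE2L2 were on a list of 16 NRF2 regulators, of which 15 were tested. In the combined treatment against vehicle none was at least 0.5 higher and 1 was at least 0.5 lower, and the list median was 0.05. Of all genes tested, 19.7% were at least 0.5 higher and 7.37% at least 0.5 lower, the background for each list below. KEAP1, the adaptor that marks NRF2 for degradation, was at 45.6, 43.2, 43.4 and 53.6 FPKM in vehicle, histidine, 6-MP and combined treatment. Its log2 fold change against vehicle, 0.23 in the combined treatment, became -0.01 after median-ratio scaling and 0.07 with scaling over the genes tested alone. BACH1, the repressor that shares the response elements with NRF2, had the highest value of the list, 0.45, with 6.66, 6.50, 7.32 and 9.46 FPKM in the same order. PGAM5, a mitochondrial phosphatase that binds KEAP1, was the 1 gene past the threshold, at 18.5, 18.5, 19.2 and 11.1 FPKM and a log2 fold change of -0.69.

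Glutathione synthesis starts with the ligation of glutamate and cysteine, for which GCLC is the catalytic and GCLM the modifier subunit. GCLC (ENSG00000001084, chr6:53497341-53616970, minus strand) was at 1.74 FPKM in vehicle, 1.92 with histidine, 1.97 with 6-MP and 2.10 in the combined treatment. The lowest level was that of vehicle, but these rest on 215 to 261 reads, and no read ratio excluded 0. For the combined treatment against vehicle the ratio was 0.27 with an interval of -0.01 to 0.54. GCLM (ENSG00000023909, chr1:93885199-93909456, minus strand) was at 4.39, 4.65, 4.62 and 5.17 FPKM in the same order, from 341 to 391 reads. GCLM was highest in the combined treatment, with a log2 fold change of 0.20 and a read ratio of 0.24 (0.02 to 0.45) against vehicle. After median-ratio scaling that fold change was -0.0056, so the direction of GCLM rests on the scaling. As deposited, both subunits were lowest in vehicle and highest in the combined treatment, with a range of 1.20-fold for GCLC and 1.18-fold for GCLM. After median-ratio scaling neither was highest in the combined treatment. There GCLC was at -0.10 against 6-MP and -0.05 against histidine, and GCLM at -0.06 and -0.04. With scaling over the genes tested alone GCLM stayed highest there, at 0.07 against vehicle, 0.01 against 6-MP and 0.02 against histidine. GCLC did not, at -0.04 against 6-MP.

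The wider list of glutathione synthesis and turnover had 12 genes tested. In the combined treatment against vehicle 3 were at least 0.5 higher (19.7% of all genes tested) and 1 at least 0.5 lower (7.37%), with a median of 0.18. SLC7A11, the cystine importer that supplies cysteine for the reaction of GCLC and GCLM, had the highest value of the list. It was at 7.41 FPKM in vehicle, 6.45 with histidine, 8.47 with 6-MP and 13.6 in the combined treatment. Its log2 fold change against vehicle was 0.80. The other genes at least 0.5 higher, named after their values were seen, were its partner chain SLC3A2 (0.72) and CHAC1 (0.56), which degrades glutathione. GSS, which completes glutathione, was at 12.3, 12.6, 11.6 and 14.2 FPKM. Its 0.19 turned to -0.03 after median-ratio scaling and to 0.05 with scaling over the genes tested alone. CHAC2, a paralog of CHAC1, was at 17.6, 14.7, 12.3 and 10.1 FPKM, a log2 fold change of -0.75. The fold change of SLC7A11 in the combined treatment against vehicle was thus above those of GCLC (0.17) and GCLM (0.20).

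GSR reduces oxidized glutathione with NADPH, and was 1 of the 2 members that were lowest in the combined treatment. GSR (ENSG00000104687, chr8:30678066-30727846, minus strand) was at 22.7 FPKM in vehicle, 21.7 with histidine, 25.3 with 6-MP and 19.0 in the combined treatment, from 882 to 1397 reads. The interval of the combined treatment, 17.8 to 20.3 FPKM, lay below those of the other 3 libraries, the nearest being histidine with 20.5 to 22.9. Against 6-MP the level of the combined treatment differed by -24.9%, a log2 fold change of -0.40 and a read ratio of -0.41 (-0.54 to -0.29). Against vehicle the read ratio was -0.26 (-0.39 to -0.13), and against histidine it was -0.19 (-0.32 to -0.06). With 6-MP alone GSR was higher than in vehicle, with a read ratio of 0.15 (0.04 to 0.27).

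GPX4, the selenoenzyme that reduces lipid peroxides at the expense of glutathione and restrains ferroptosis, was the most abundant of the members. GPX4 (ENSG00000167468, chr19:1103926-1106791, plus strand) was at 99.8 FPKM in vehicle, 96.7 with histidine, 102.0 with 6-MP and 102.6 in the combined treatment, from 2673 to 3160 reads. As deposited the highest level was 1.06 times the lowest, the smallest range of the expressed members, which did not hold after median-ratio scaling. The interval of the read ratio excluded 0 only in the combined treatment against histidine (0.09, 0.01 to 0.16). The difference from vehicle in the combined treatment, 0.04, became -0.20 after median-ratio scaling. That from histidine, 0.08, became -0.12, and -0.05 with scaling over the genes tested alone. Among the 12 tested peroxidases, catalase and superoxide dismutases, none was at least 0.5 higher than vehicle and 2 were at least 0.5 lower in the combined treatment, with a median of -0.11. These were the peroxiredoxins PRDX1 (398, 376, 362 and 234 FPKM, log2 fold change -0.76) and PRDX4 (27.4, 26.2, 27.0 and 15.5 FPKM, -0.79), which remove hydrogen peroxide. GPX1, a further glutathione peroxidase, had the highest value of the list, 0.36, with 98.4 to 108 FPKM in the first 3 libraries and 139 FPKM in the combined treatment.

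TXNRD1, the cytosolic selenoenzyme that reduces thioredoxin, was lowest in the combined treatment as well. TXNRD1 (ENSG00000198431, chr12:104215779-104350307, plus strand) was at 47.9 FPKM in vehicle, 46.2 with histidine, 48.7 with 6-MP and 37.7 in the combined treatment, from 3262 to 5016 reads. The first 3 libraries lay within 46.2 to 48.7 FPKM, and the interval of the combined treatment, 36.4 to 39.0 FPKM, did not reach them. The level in the combined treatment differed by -21.3% from vehicle, by -22.7% from 6-MP and by -18.4% from histidine. On the log2 scale these differences were -0.34, -0.36 and -0.29, short of the threshold of 0.5. The read ratios were -0.34 (-0.41 to -0.28), -0.37 (-0.43 to -0.31) and -0.29 (-0.36 to -0.23), and stayed below 0 with the number of reads taken as 1631 to 2508 under a shorter gene length. After median-ratio scaling the difference from vehicle was -0.57. The gene spans the processed pseudogene RPL18AP3 on the same strand, listed at 312 to 348 FPKM.

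Thioredoxin itself was also lowest in the combined treatment. TXN was at 90.5, 91.3, 93.3 and 60.1 FPKM in vehicle, histidine, 6-MP and combined treatment, with a log2 fold change of -0.58 against vehicle, the lowest of the thioredoxin and glutaredoxin list. TXNIP, which binds and inhibits thioredoxin, was at 16.7, 15.2, 13.8 and 15.7 FPKM. Its read ratio in the combined treatment against vehicle did not exclude 0 (-0.08, -0.23 to 0.06). SRXN1 (ENSG00000271303, chr20:646615-653200, minus strand), which repairs overoxidized peroxiredoxins, had 3 reads with histidine, 3 with 6-MP and none in the other 2 libraries. The floor of 3 reads corresponds to 0.0766 to 0.0920 FPKM in these libraries, so no fold is given, and a difference in SRXN1 was not detectable at this depth. SESN1, a sestrin and p53 target, had the highest value of the 16 tested genes of this list. It was at 4.31, 4.05, 4.14 and 13.1 FPKM, a log2 fold change of 1.41 against vehicle. SESN1 and TXN were the only genes of the list past 0.5 in that comparison, and the list median was -0.01.

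NQO1, which reduces quinones to hydroquinones and is a classical NRF2 target, had the largest fold change of the members in the values as deposited. NQO1 (ENSG00000181019, chr16:69706996-69726668, minus strand) was at 2.14 FPKM in vehicle, 1.98 with histidine, 2.54 with 6-MP and 3.73 in the combined treatment, from 91, 91, 116 and 143 reads. The interval of the combined treatment, 3.14 to 4.40 FPKM, lay above those of the other libraries, the nearest being 6-MP with 2.10 to 3.05. The level was 1.74 times that of vehicle, 1.47 times that of 6-MP and 1.89 times that of histidine. The log2 fold changes were 0.59, 0.42 and 0.67, of which the one against 6-MP missed the threshold of 0.5. The read ratios were 0.80 (0.41 to 1.20), 0.55 (0.19 to 0.92) and 0.92 (0.53 to 1.31). After median-ratio scaling the difference from vehicle was 0.41, and 0.47 with the genes tested alone, both below 0.5. On this scale both were smaller in size than those of TXNRD1 (-0.57 and -0.49). However, log2(FPKM + 1) makes the changes of a weakly expressed gene such as NQO1 too small, so the 2 genes are not ordered by it.

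No difference between NQO1 with a single agent and in vehicle was detectable at this depth. Histidine gave a read ratio of -0.11 (-0.55 to 0.32) and 6-MP gave 0.25 (-0.16 to 0.66), and both intervals include 0. Among 6735 protein-coding genes whose mean reached 5 FPKM, the patterns closest to that of NQO1 over the 3 fold changes against vehicle were MAGED2, ZNF253 and APLP2, with Euclidean distances of 0.0394, 0.0427 and 0.0503. MAGED2 was at 14.9, 14.0, 17.3 and 22.6 FPKM in vehicle, histidine, 6-MP and combined treatment. As 3 differences from the same vehicle library define the pattern, likeness describes these 4 libraries only.

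HMOX1 (ENSG00000100292, chr22:35380361-35394214, plus strand), the inducible heme oxygenase, had 2 reads in vehicle, 2 in the combined treatment and none with histidine or 6-MP. All values were under the floor of 3 reads, 0.0840 to 0.101 FPKM, and no fold is given. These read numbers rest on a gene length of 2306 bases, and would be lower at the shortest fitting length, 1153 bases. The constitutive paralog HMOX2 was at 3.68, 1.91, 3.63 and 6.96 FPKM, with a log2 fold change of 0.76 in the combined treatment against vehicle and 1.45 against histidine, the gene lying across NMRAL1 on the other strand. The list of heme, iron and quinone detoxification had 16 genes tested, with a median of 0.20. Of these, 6 were at least 0.5 higher than vehicle in the combined treatment (19.7% of all genes tested) and 2 at least 0.5 lower (7.37%). EPHX1, the microsomal epoxide hydrolase, had the highest value, 0.91, with 10.0, 9.57, 9.69 and 19.7 FPKM. TFRC, the transferrin receptor of iron uptake, had the lowest, -0.88, with 43.1, 37.3, 41.6 and 23.1 FPKM. NQO1 and HMOX2 were among the 6 genes higher as deposited. After median-ratio scaling NQO1 stood at 0.41, short of 0.5, and HMOX2 at 0.56. The list median was then 0.05, beside -0.07 for all genes tested.

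**Figure D3:**
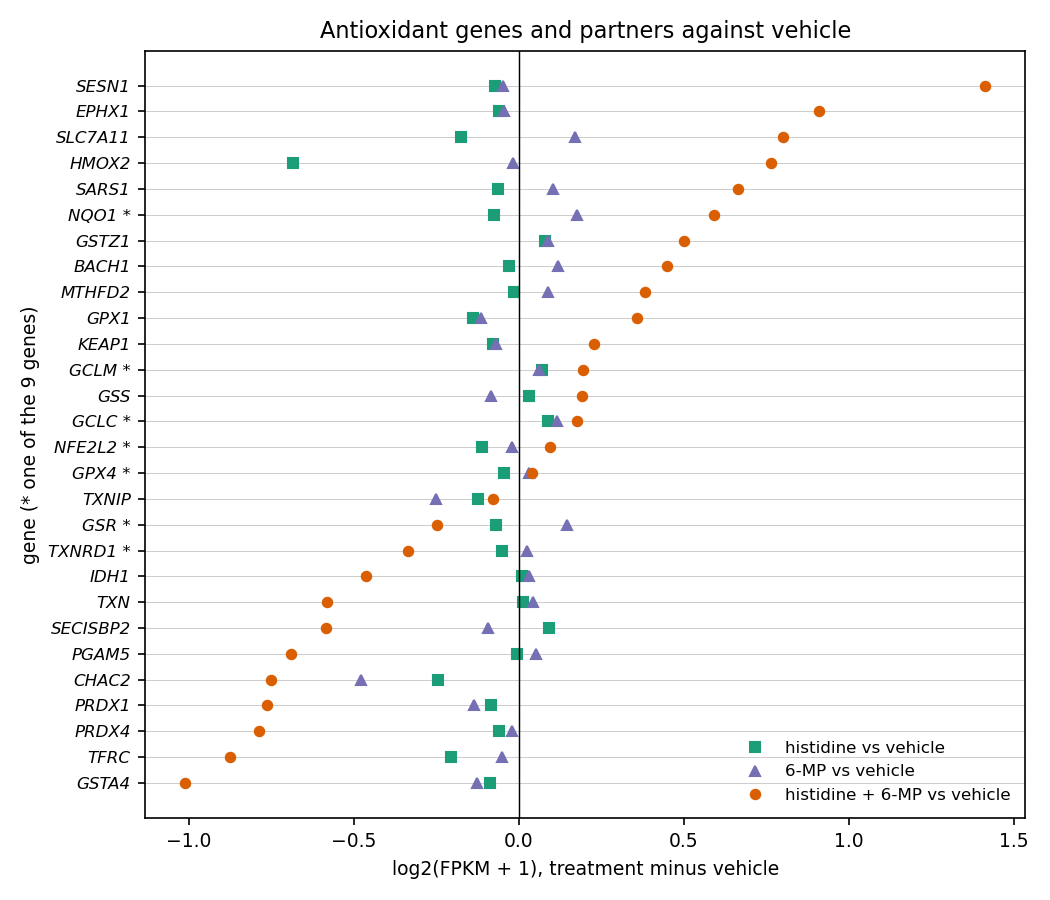
Difference of log2(FPKM + 1) against vehicle (x axis) for histidine, 6-MP and the combined treatment in the 7 expressed members, marked with an asterisk, and their named partners (y axis, ordered by the combined treatment). Apart from HMOX2 with histidine and CHAC2 with 6-MP, single agents lay between -0.25 (TXNIP with 6-MP) and 0.18 (NQO1 with 6-MP). The combined treatment spread from -1.01 (GSTA4) to 1.41 (SESN1).

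The crossed layout of the agents allowed a description of how far the combined treatment departed from the sum of the single agents. On the log2 scale the departure was 0.49 for NQO1, 0.23 for NFE2L2, 0.07 for GCLM, 0.05 for GPX4, -0.03 for GCLC, -0.31 for TXNRD1 and -0.33 for GSR. No member passed 1 (6.76% of all genes tested) or 0.5 (27.3%). Set against their counting errors, the departures on the read scale were largest for TXNRD1 (-0.32 with a counting SE of 0.044) and GSR (-0.34 with 0.086), followed by NFE2L2 (0.25 with 0.10) and NQO1 (0.67 with 0.28). Those of GCLC (-0.05 with 0.19), GCLM (0.08 with 0.15) and GPX4 (0.05 with 0.05) were about their counting errors or smaller. The median of all genes tested was 0.11, and after median-ratio scaling 2 members were above 0 and 5 below. Those above were NQO1 (0.34) and NFE2L2, whose departure of 0.23 became 0.05.

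The wider antioxidant network held genes higher and genes lower in the combined treatment. The 8 pathway lists held 128 genes, of which 118 were in the table and 101 were tested. In the combined treatment against vehicle 12 were at least 0.5 higher and 9 at least 0.5 lower, 20.8% in all, beside the 27.1% of all genes tested. As deposited, past 1 there were SESN1 (higher) and GSTA4 (lower), 1.98% of the genes tested in the lists, beside 6.53% of all genes tested. After median-ratio scaling PRDX1 (-1.01), PRDX4 (-1.02) and TFRC (-1.11) passed 1 as well, beside 5.78% of all genes tested. Of the 10 tested glutathione transferases and glyoxalases 1 was at least 0.5 higher and 1 at least 0.5 lower, with a median of 0.08. GSTA4, a transferase that conjugates lipid peroxidation products to glutathione, was at 7.48, 6.98, 6.76 and 3.21 FPKM, a log2 fold change of -1.01. GSTZ1, a transferase of tyrosine breakdown, was at 2.01, 2.18, 2.21 and 3.26 FPKM, a log2 fold change of 0.50. Against 6-MP 10 genes were at least 0.5 higher and 8 at least 0.5 lower, 17.8% in all beside 26.2% of all genes tested. Against histidine the numbers were 12 and 8, 19.8% beside 25.4%. For histidine against vehicle none was at least 0.5 higher and 2 were at least 0.5 lower, 1.98% beside 4.86%. For 6-MP against vehicle 1 was higher and 1 lower, 1.98% beside 4.72%.

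**Figure D4:**
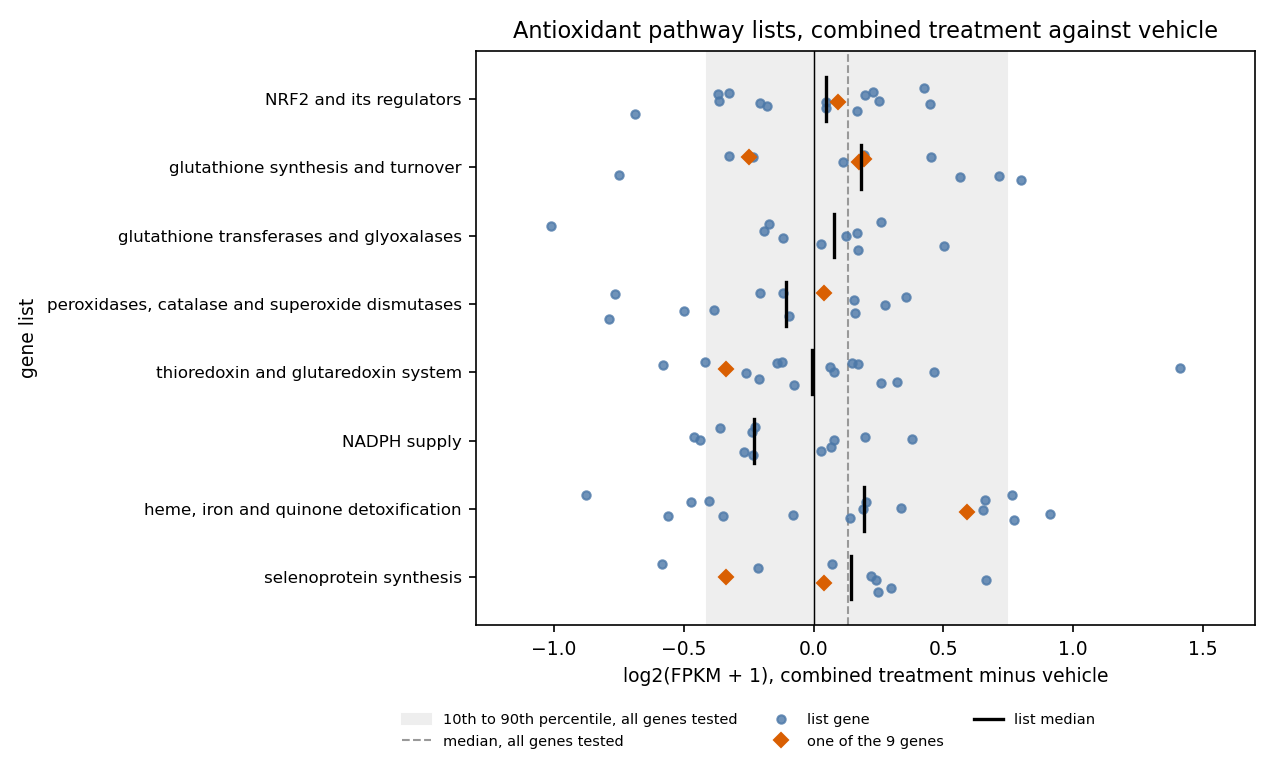
Difference of log2(FPKM + 1) between the combined treatment and vehicle (x axis) for every tested gene of the 8 pathway lists (y axis), with orange diamonds for the 7 expressed members, black bars for list medians, a dashed line for the median of all genes tested and grey shading for their 10th to 90th percentile. NADPH supply had the lowest list median, -0.23, and heme, iron and quinone detoxification the highest, 0.20.

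The list of NADPH supply, which holds cytosolic and mitochondrial enzymes, had the lowest list median of the 8, -0.23, beside 0.13 for all genes tested. None of its 12 tested genes passed 0.5 in either direction. IDH1, the cytosolic isocitrate dehydrogenase, was lowest of the list with 18.9, 19.0, 19.3 and 13.4 FPKM (-0.46). MTHFD2, of mitochondrial folate metabolism, was highest with 19.3, 19.1, 20.6 and 25.4 FPKM (0.38). Selenoprotein synthesis, on which TXNRD1 and GPX4 depend, had 10 genes tested with 1 at least 0.5 higher, 1 at least 0.5 lower and a median of 0.15. SARS1, the seryl-tRNA synthetase, was at 40.5, 38.7, 43.6 and 64.8 FPKM (0.66), and SECISBP2, which reads the selenocysteine signal, was at 8.72, 9.36, 8.11 and 5.49 FPKM (-0.58).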

How the data were processed

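The 4 RNA-seq libraries of Reh-6-MPR cells, 1 per treatment, were grouped by the treatment in the sample labels. Libraries were made with a TruSeq Stranded mRNA kit. The authors deposited gene expression as FPKM values for 29833 genes. The submitters' processing notes name Trimmomatic, HISAT2, Cufflinks, HTSeq and GRCh38. The role and version of each tool and the strand setting of the counting are not given in the sources used here.

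Within a gene the deposited FPKM values are whole multiples of 1 read, so reads were recovered from them (whole to within 6.94e-05 for all 29833 genes). For 1393 genes the shortest fitting length was multiplied by up to 6, to within 10% of the GENCODE 29 length, a rule set after totals had been compared. The recovered reads made up 99.921% to 99.941% of the library totals, 12899122 to 15486376 reads.

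Fold changes were differences of log2(FPKM + 1) in the 12750 genes whose mean FPKM reached 1, counted at absolute values of 1 and 0.5. The read ratio is the log2 ratio of reads per library total. Its interval, like those of the levels, is an exact Clopper-Pearson interval at 95%. The floor was 3 reads. The 9 genes and all lists were chosen with earlier results of these data known. Named genes are the members, direct partners (KEAP1, SLC7A11, GSS, TXN, TXNIP and PRDX1, and a further gene not reported here), the highest and lowest gene of each pathway list in the combined treatment against vehicle, list genes past 1 in any comparison, and the 3 genes closest in pattern to the member that differed most from vehicle as deposited. SLC3A2 and CHAC1 were added after their values were seen.

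Alternatives were a pseudocount of 0.1, no filter, a minimum mean FPKM of 5, median-ratio scaling, protein-coding genes only and read ratios without a pseudocount. Scaling over the genes tested and the shorter length for TXNRD1 were chosen after seeing the data. Scripts were tested on simulated data. Intervals were computed with scipy 1.17.1 and plots drawn with matplotlib 3.10.9, under Python 3.11.15 with pandas 2.3.3 and numpy 2.4.6.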

Additional observations from a re-analysis of the deposited data

Results flagged for a closer look

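The members and the named genes, 31 in all of which 29 were tested, were searched for sign changes. In 4 of the 29 the read ratio of an agent had opposite signs without and with the other agent. The counting intervals excluded 0 on both sides. Of all 12750 genes tested 9.14% showed this for at least 1 agent, 5.33% for 6-MP and 5.88% for histidine, and some of the named genes had been named for their values. With 1 library per treatment these differences were not tested. Among the members this was the case for GSR, the glutathione reductase, with 0.15 for 6-MP against vehicle and -0.19 for the combined treatment against histidine. For SLC7A11, the cystine importer, the ratio was -0.20 for histidine against vehicle and 0.69 for the combined treatment against 6-MP. For GPX1, a glutathione peroxidase, it was -0.12 for 6-MP against vehicle and 0.50 for the combined treatment against histidine. GPX1 also had -0.14 for histidine against vehicle and 0.48 for the combined treatment against 6-MP. For HMOX2, the constitutive heme oxygenase, it was -0.95 for histidine against vehicle and 0.94 for the combined treatment against 6-MP.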

How the results depend on the processing

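No paired analysis was possible because no treatment was given more than 1 library, and leaving out replicates did not apply for the same reason. None of the 7 expressed members passed an absolute log2 fold change of 1 under any setting. The share of genes tested past 1 is given here in the order histidine, 6-MP and combined treatment, each against vehicle, then the combined treatment against 6-MP, against histidine, and the departure from additivity. It was 3.05%, 3.05%, 11.9%, 11.0%, 10.0% and 11.8% with a pseudocount of 0.1. It was 0.285%, 0.231%, 4.11%, 3.65%, 3.58% and 3.83% with a mean FPKM of at least 5. It was 0.19%, 0.15%, 4.22%, 3.81%, 3.55% and 3.91% among protein-coding genes. Without a filter, the combined treatment gave 4.17% against vehicle and 3.93% against 6-MP. At a threshold of 0.5, a pseudocount of 0.1 gave 1 member, NQO1, in the combined treatment against 6-MP (33.6% of genes tested) and 1, NQO1, in the departure from additivity (34.4%). With a mean FPKM of at least 5, which keeps 4 of the members and not NQO1, the count was 0 against vehicle (21.8%) and 0 against histidine (21.1%). Median-ratio scaling gave 2 members against 6-MP (25.4%) and 2 in the departure (26.6%), GSR and TXNRD1 each time, and the 1 member past 0.5 against vehicle (26.4%) was then TXNRD1 (-0.57) rather than NQO1 (0.41). Scaling over the genes tested, chosen after seeing the data, gave 0 members against vehicle (25.6%) and 2 against 6-MP (24.4%). Of the 42 values of the 7 expressed members, none changed sign with a pseudocount of 0.1 or as read ratios, 12 did with median-ratio scaling and 9 with scaling over the genes tested, none of them for NQO1, GSR or TXNRD1. Depth limits SRXN1 and HMOX1, both at or under 3 reads.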
